A study of Mus musculus with 8 samples.

Results

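The D-type cyclins and the genes that act with them at the G1 phase of the cell cycle were followed in mouse germinal vesicle (GV) oocytes, the immature oocytes held in meiotic prophase with an intact nucleus. The 10 genes, of 18193 with a probe set of their own, were Ccnd1, Ccnd2, Ccnd3, Cdk4, Cdk6, Cdkn1b, Cdkn2c, Rb1, Ccne1 and Ccne2, and they were taken as the 27 probe sets, of 45101 on the array, whose annotation gives exactly 1 of these symbols. The genes were picked by name with earlier results for their listing and level on these same arrays known, so their values are a description.

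Total RNA was measured on 8 single-colour Affymetrix mouse arrays, 4 of GV oocytes kept for 48 h in milrinone and 4 of untreated GV oocytes. Milrinone inhibits the oocyte cAMP phosphodiesterase and holds the oocyte at the GV stage. Each array received 15 µg of biotinylated cRNA, so a level is relative to the other RNA of its sample. The sources used here give neither strain, age and number of oocytes nor the way surrounding cells were removed. No sample was cultured without milrinone, so drug, culture and time cannot be told apart, and nothing says that replicates came from separate animals, so their spread may be technical.

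Values are deposited intensities on a linear scale. Many cells of the table are empty, and a probe set is called listed where its cell holds a value. How low the signal of an empty cell was is not known. The milrinone arrays listed between 18572 and 19414 probe sets other than controls and the untreated arrays between 18855 and 23237. Untreated 1 listed the most and stood apart: its median correlation with the others was 0.933, where the remaining 7 arrays had 0.969 to 0.981. Fewer cells of a type and less RNA per cell cannot be told apart in such bulk samples. Markers of the oocyte were listed in full on every array, 22 of 22 probe sets.

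D-type cyclins are the regulatory partners of the kinases encoded by Cdk4 and Cdk6. The active kinases phosphorylate the retinoblastoma protein, encoded by Rb1, which releases E2F transcription factors and opens the way to DNA replication, a step that cyclin E then completes with Cdk2. Cdkn1b and Cdkn2c encode inhibitors of these kinases. A GV oocyte replicated its DNA before meiosis and is not in G1, whereas the granulosa cells around it proliferate and use cyclin D2, whose gene responds to follicle-stimulating hormone in those cells.

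The milrinone arrays listed 14, 13, 14 and 13 of the 27 probe sets, against 23, 20, 20 and 19 on the untreated arrays. The difference lay between probe sets more than between genes, since 9 of the 10 genes had at least 1 listed probe set on each milrinone array and all 10 on each untreated array. Ccnd2 supplied the largest part of it, with 3, 1, 1 and 0 of its 7 probe sets listed on the milrinone arrays and 7, 5, 6 and 6 on the untreated arrays. The other 9 genes together had 11, 12, 13 and 13 listed probe sets in milrinone, against 16, 15, 14 and 13 in untreated samples. A set of 3 probe sets, 2 of Ccnd3 and 1 of Rb1, was listed on no array.

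Ccnd2, which encodes cyclin D2, was listed mainly in the untreated samples. Probe set 1416122_at was empty on all 4 milrinone arrays, and it had 1627, 1001, 965 and 1683 on the untreated arrays, a mean of 1319 ± 389 (SD, n = 4). Probe set 1434745_at had 74.6 on milrinone 1 and no value on the other milrinone arrays, against 1475, 993, 882 and 1235 in untreated samples. The lowest untreated value of that probe set was 11.8 times the value on milrinone 1.

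The other probe sets of Ccnd2 ran the same way. Probe set 1448229_s_at had 79.2 on milrinone 1 alone, against 969, 731, 754 and 645 on the untreated arrays. Probe set 1455956_x_at had 74.2 on milrinone 1 and 51.5 on milrinone 3, against 625, 439.8, 377 and 528 in untreated samples. The groups did not overlap on either, and the lowest untreated value was 8.15 and 5.08 times the highest milrinone value. Probe set 1430127_a_at was empty in milrinone and had 330.3, 283, 269 and 529.9 on the untreated arrays. Of the remaining pair, 1416123_at had 32.2 on milrinone 2, against 123, 80.7 and 112 on untreated 1, 3 and 4, and 1416124_at had a value only on untreated 1, at 15.9. Several probe sets read the same transcript, so they are not separate replicates.

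**Figure D1:**
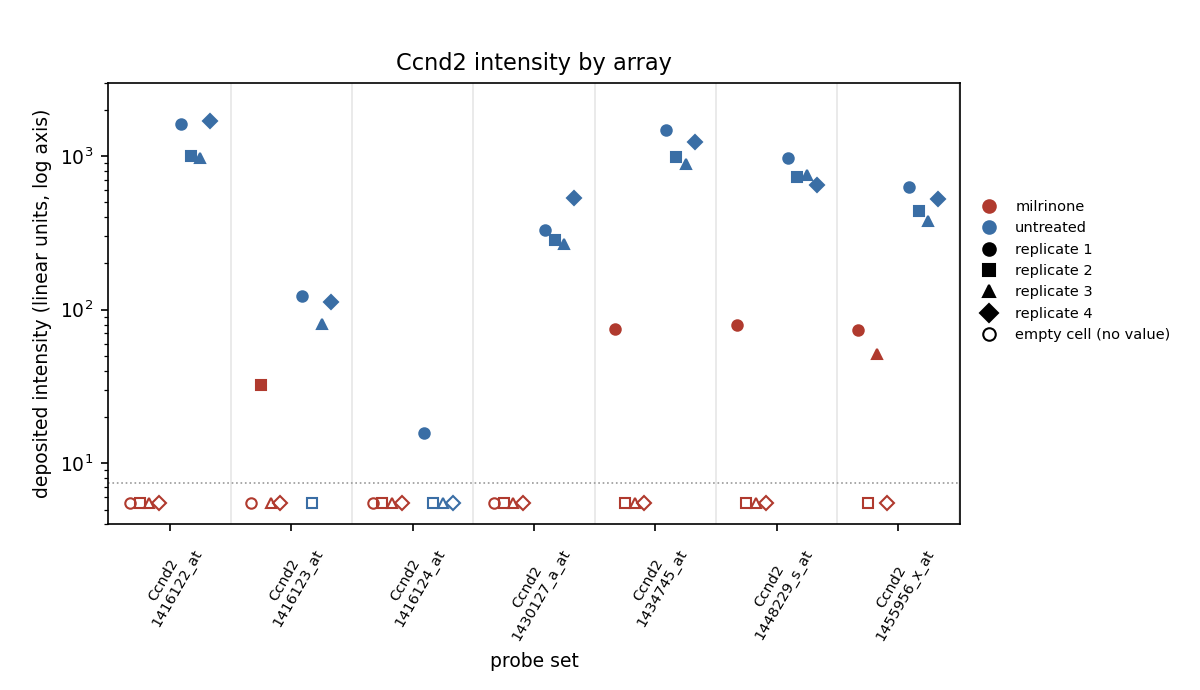
Intensity of the 7 Ccnd2 probe sets on each array (log axis), milrinone in red to the left of untreated in blue, with a marker shape per replicate. Open markers under the dotted line are empty cells and stand for no value. Listed milrinone values reach at most 79.2, and 5 probe sets have values from 269 to 1683 on all 4 untreated arrays.

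Over the whole array, 1.33% of the 15931 probe sets listed on all 4 untreated arrays were listed on 0 milrinone arrays, and 5.33% were listed on at most 2. Of the 17 member probe sets listed on all 4 untreated arrays, 2 were listed on 0 milrinone arrays and 9 on at most 2. Those 9 were 5 of Ccnd2 and 1 each of Ccnd1, Ccnd3, Cdk6 and Ccne1. On the probe sets of Ccnd1, Ccnd3 and Ccne1 the listed values of the groups overlapped. They ran from 71.8 to 202, where the median listed value of an array was 283 to 413. The shares over the whole array take in probe sets of every level, so dim signal and a lower level were not separated. The reverse pattern, listed on all 4 milrinone arrays and at most 2 untreated arrays, held for 1.66% of 15267 probe sets and for 0 of the 9 member probe sets listed on all 4 milrinone arrays.

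None of the 7 Ccnd2 probe sets was listed on 3 milrinone arrays, so none entered the test across the array. With the rule relaxed to 2 listed arrays in each group, 1455956_x_at had a log2 difference, milrinone minus untreated on the log2(intensity + 16) scale, of -2.68 (95% interval -3.26 to -2.10). It rests on milrinone 1 and 3 alone, and it was the only member probe set called under that rule (limma), which called 0.109% of 18287. Empty cells were left empty, and what the empty arrays would have given is not known.

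The list of granulosa, cumulus and theca markers had fewer listed probe sets in milrinone, as Ccnd2 did, but not every member was lower. Of 50 probe sets of 25 such genes, the milrinone arrays listed 12 to 20 with a summed intensity of 3811 to 4966, and the untreated arrays listed 26 to 38 with a sum of 23561 to 100278. A probe set of Esr2 had 706 to 961 in milrinone against 624 to 951 on untreated 1, 2 and 3. Another, of Cyp11a1, had 181 to 226 in milrinone against 127 to 212 on untreated 1, 2 and 4. For Kitl, 56.2 to 96.0 on milrinone 1, 3 and 4 stood against 56.5 to 89.5 in untreated samples. The groups overlapped on these, whereas Grem1 had 54.2 to 96.1 on milrinone 1, 2 and 3 against 1106 to 5704 in untreated samples. Of the 25 genes, 9 had no value on any milrinone array, a count set beside no share of all genes. Among these, Amhr2, Cyp17a1, Fst, Npr2, Nr5a1, Star and Tnfaip6 were listed in untreated samples, Tnfaip6 on untreated 2 alone at 14.4, whereas Amh and Gatm were listed on no array. Markers of blood, stroma and endothelium were listed on 3 or 4 of 21 probe sets in milrinone (sum 569 to 734) and on 9 to 14 in untreated samples (sum 1434 to 16300). Markers of proliferating cells, which an oocyte also expresses, had 35 to 39 of 47 probe sets listed in milrinone and 35 to 38 in untreated samples. The part of these cells in the difference of Ccnd2 was not tested.

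Ccnd2 had a smaller excess on untreated 1 than most granulosa markers. Its signal there was 0.915 to 1.42 times the mean of untreated 2 to 4 over the 5 probe sets listed on all 4 untreated arrays. For the 24 such probe sets of granulosa, cumulus and theca markers this ratio had a median of 4.48 and ran from 0.718 to 11.9, and 22 of them were highest on untreated 1. Ccnd2 was highest on untreated 1 for 3 of its 5 probe sets and on untreated 4 for the other 2. The steroid enzyme genes Cyp11a1 and Hsd3b1 stood at 10.4 and 4.57 and the inhibin subunit gene Inha at 4.35. Star, which delivers cholesterol for steroid synthesis, stood highest at 11.9. Grem1, a BMP antagonist made by cumulus cells, stood at 0.930, within the range of the 5 Ccnd2 probe sets, and Kitl stood lowest at 0.718. Has2, Ptgs2, Ptx3 and Tnfaip6 of the same list had no probe set listed on all 4 untreated arrays, so they have no ratio. Star, Grem1 and Kitl were picked after their values were seen. Over all 15931 probe sets the median ratio was 0.894.

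**Figure D2:**
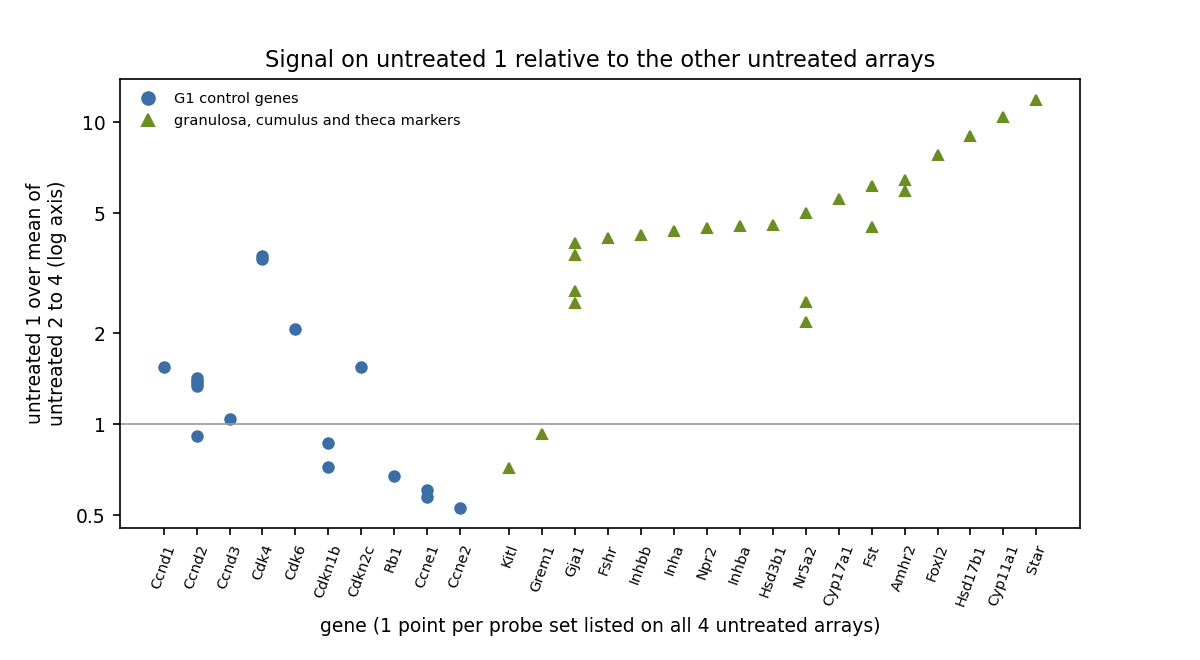
Intensity on untreated 1 divided by the mean of untreated 2 to 4 (log axis), with 1 point per probe set listed on all 4 untreated arrays. G1 control genes are circles and granulosa, cumulus and theca markers are triangles. Ccnd2 lies between 0.915 and 1.42, Cdk4 at 3.53 and 3.61, and 22 of 24 markers at or above 2.18.

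For the other D-type cyclins the listed values of the groups lay close together. Ccnd1, which encodes cyclin D1, had 77.7, 74.4, 80.6 and 87.4 on the milrinone arrays with probe set 1417420_at, against 97.8, 103 and 111 on untreated 1, 2 and 4, with untreated 3 empty. These values did not overlap and differed by -0.32 on the log2 scale (95% interval -0.64 to -0.01). A second probe set, 1448698_at, overlapped, with 79.1 and 87.5 on milrinone 1 and 3 against 119, 71.8, 76.1 and 82.9 on the untreated arrays. The third probe set of Ccnd1 had a value on untreated 1 alone, at 92.8. For Ccnd3, which encodes cyclin D3, 1 of 3 probe sets was listed, 1415907_at, with 147 and 165 on milrinone 3 and 4 against 168, 202, 151 and 132 in untreated samples. Those groups overlapped too.

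The kinase genes were lower in milrinone wherever both groups had values. Cdk4 had 270.2, 308, 258 and 331 on the milrinone arrays with 1422441_x_at, against 1698, 606, 416 and 389 on the untreated arrays. The groups did not overlap, but untreated 1 was far above the rest. Probe set 1422439_a_at had 98.9, 148, 158 and 129 in milrinone against 752, 280.2, 183 and 177 in untreated samples. Probe set 1422440_at had 105, 124 and 105 on milrinone 2, 3 and 4 against 509, 182 and 159 on untreated 1, 2 and 3. The log2 differences of these 3 probe sets were -1.10 (SE 0.39), -1.05 (SE 0.39) and -1.05 (SE 0.38), and without untreated 1 they were -0.64, -0.61 and -0.55.

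Cdk6 was listed on few milrinone arrays. Probe set 1455287_at had 62.6 and 66.1 on milrinone 2 and 4, against 285, 113, 119 and 181 in untreated samples. Probe set 1435338_at had 68.2 on milrinone 4, against 332, 147 and 112 on untreated 1, 2 and 3. The groups did not overlap on either, and both were highest on untreated 1. The third probe set, 1460291_at, was listed on milrinone 1 alone, at 56.6, so the probe sets of Cdk6 did not run one way.

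The upstream sequence of both kinase genes is shown because they are the catalytic partners of cyclin D and all their probe sets with values in both groups lay lower in milrinone. Promoter sequences from RefSeq were at hand for 6 of the 10 genes, Ccnd3, Cdk4, Cdk6, Cdkn1b, Cdkn2c and Ccne1, and not used here for Ccnd1, Ccnd2, Rb1 and Ccne2. The 250 bases before the annotated start are written in mouse build GRCm38.p6, on the plus strand, at chr10:127063285-127063534 for Cdk4 and at chr5:3343643-3343892 for Cdk6. Capitals mark each CACGTG, the E-box letters that Myc family factors are known to bind, which reads the same on both strands. The E2F-like letters TTTNNCGC and the GC box GGGCGG were also counted, on both strands, and are not marked.
Cdk4: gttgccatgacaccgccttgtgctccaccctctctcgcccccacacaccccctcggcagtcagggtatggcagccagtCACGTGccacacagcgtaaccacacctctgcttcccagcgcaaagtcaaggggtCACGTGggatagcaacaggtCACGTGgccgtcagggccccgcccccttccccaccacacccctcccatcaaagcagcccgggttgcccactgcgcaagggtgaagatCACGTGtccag
Cdk6: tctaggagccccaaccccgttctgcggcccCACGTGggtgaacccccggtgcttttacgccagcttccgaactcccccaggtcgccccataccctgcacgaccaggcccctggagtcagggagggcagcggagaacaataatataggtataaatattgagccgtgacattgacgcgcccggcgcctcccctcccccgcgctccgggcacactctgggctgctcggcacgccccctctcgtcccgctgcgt
Cdk4 held 4 such matches and Cdk6 held 1, and the windows of the other 4 genes held 0. Of 32851 promoter windows of this length, 6.02% held at least 1 and 0.0213% at least 4. TTTNNCGC was found 1 time in Cdk6 and in none of the windows of the other 5 genes, against 4.28% of all windows with at least 1. GGGCGG was found 1 time in Cdk4 and in Cdkn1b, 0 times in Cdk6 and 4 times in Ccne1. The windows of Ccnd3 held 2 and 1, and those of Cdkn2c held 3 and 0. Of all windows, 32.7% held at least 1 and 4.09% at least 4. A match is a run of letters and no evidence of binding.

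The inhibitor genes overlapped between the groups. Cdkn1b had 416, 566, 526 and 555 on the milrinone arrays with 1434045_at, against 398, 504, 502 and 369.7 on the untreated arrays, a log2 difference of 0.21 (95% interval -0.15 to 0.58). Its other probe set 1419497_at had 57.3, 99.9, 69.6 and 43.0 in milrinone against 59.4, 49.4, 36.1 and 162 in untreated samples, a difference of -0.02 (-0.80 to 0.75), which became 0.35 without untreated 4, its highest array. Cdkn2c had 284, 309, 447 and 465 in milrinone against 566, 332, 289 and 474 in untreated samples, a difference of -0.12 (-0.66 to 0.42). The intervals are wide enough to hold changes in either direction.

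Rb1, the target of the cyclin D kinases, was even across the milrinone arrays, and its groups overlapped. It had 2070.0, 2104, 2080.3 and 2149 in milrinone, against 1349, 1677, 2174 and 2172 in untreated samples. The log2 difference was 0.21 (95% interval -0.13 to 0.56), and 0.07 without untreated 1, the lowest array. The probe sets of other genes whose log2 values followed Rb1 most closely over the 8 arrays, among 13306 listed on all of them, were of Tax1bp1 (Pearson r = 0.994), Hmgb2 (0.985), Cfap97 (0.983), Camsap2 (0.983) and Fndc3a (0.982), and all 5 were lowest on untreated 1.

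The cyclin E genes were highest on untreated 2. Ccne1 had 306, 301, 341 and 349 on the milrinone arrays with 1441910_x_at, against 266, 632, 363 and 393 on the untreated arrays. Its other probe set, 1416492_at, had 108 and 117 on milrinone 2 and 3, against 75.3, 163, 102 and 108 in untreated samples. Ccne2 had 66.2, 68.2, 81.5 and 119.7 in milrinone, against 87.3, 299, 87.1 and 109 in untreated samples. The groups overlapped on all 3 probe sets. The log2 difference was -0.27 (95% interval -0.78 to 0.24) for 1441910_x_at of Ccne1 and -0.55 (-1.30 to 0.21) for Ccne2, and without untreated 2 it was -0.05 and -0.17.

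**Figure D3:**
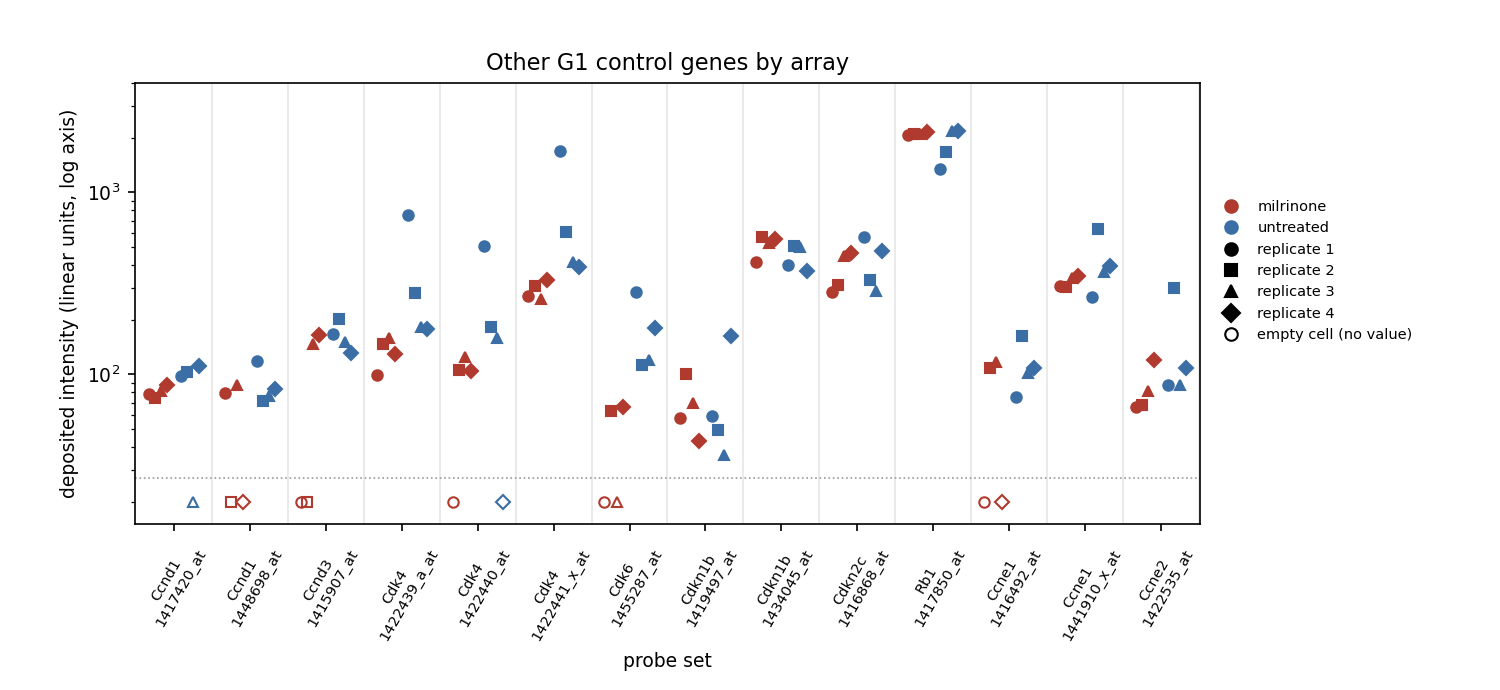
Intensity of the 14 probe sets of the other 9 genes that were listed on at least 6 arrays (log axis), milrinone in red to the left of untreated in blue, with a marker shape per replicate. Open markers under the dotted line are empty cells. The circles of untreated 1 stand highest for Cdk4 and Cdk6, and the squares of untreated 2 for Ccne1 and Ccne2.

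Differences were estimated across the array with limma for the 16288 probe sets listed on at least 3 arrays of each group, of which 0.117% had an adjusted p under 0.05. The 10 member probe sets among them, of 7 genes, held 0 such probe sets and 4 at an unadjusted p under 0.05, those being 1417420_at of Ccnd1 and the 3 of Cdk4, where 9.63% of all 16288 reached that level. Their log2 differences had a median of -0.30, with 8 below 0 and 2 above, beside a median of 0.06 over all 16288. Values did not overlap and were lower in milrinone for 4 of the 10, against 2.74% of all tested probe sets, and were higher without overlap for 0, against 5.06%. Those 4 were again 1417420_at of Ccnd1 and the 3 of Cdk4, which read 1 gene and were all highest on untreated 1. Since 17 member probe sets were not tested, these 10 do not stand for the whole group, and nothing is read from the counts.

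**Figure D4:**
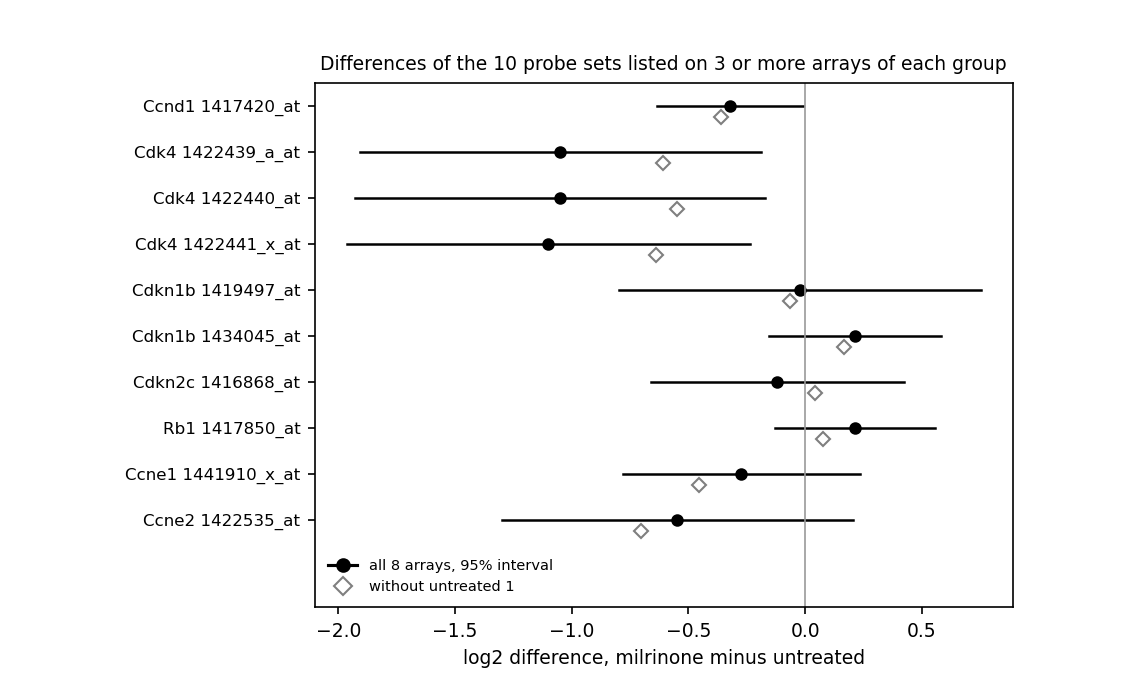
Log2 difference, milrinone minus untreated, of the 10 member probe sets listed on at least 3 arrays of each group. Circles are the estimates from all 8 arrays with 95% intervals from limma, and open diamonds are the estimates without untreated 1. The Cdk4 estimates lie near -1.1 with all arrays and between -0.64 and -0.55 without untreated 1.

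Of 42 other genes of G1 control, such as Cdk2, the E2F factors and the remaining inhibitors, 31 had at least 1 tested probe set. None of their 57 tested probe sets passed (limma adjusted p under 0.05), 2 reached an unadjusted p under 0.05 (9.63% of all tested probe sets did), and the median of their log2 differences was 0.06. Ccng1, which encodes cyclin G1, a target of p53, had 65.7, 67.6, 68.1 and 50.5 in milrinone with its probe set of smallest p, against 487, 96.9, 103 and 96.5 in untreated samples (limma adjusted p = 0.494). A second probe set of Ccng1, 1450016_at, showed no such excess on untreated 1, with 131, 138, 128 and 115 in milrinone against 156, 125, 171 and 151 in untreated samples. Cdk7, the kinase that activates other cyclin-dependent kinases, had 565 to 658 in milrinone against 449.7 to 514 in untreated samples with the probe set of smallest p (limma adjusted p = 0.498). The groups overlapped on its other widely listed probe set, with 2498 to 2664 in milrinone against 1720 to 2584 in untreated samples.

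The cyclin A gene Ccna2 had 3884 to 4902 in milrinone against 3318 to 4543 in untreated samples, and Tfdp2, a partner of E2F, had 1135 to 1357 in milrinone against 736 to 1229 in untreated samples. Ccni, which encodes cyclin I, had 1687 to 1979.8 in milrinone against 1532 to 2877 in untreated samples. Fbxw7, which marks cyclin E for destruction, had 359 to 452 in milrinone against 414 to 499 in untreated samples. The groups overlapped for these 4 genes, with limma adjusted p from 0.564 to 0.594.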

How the data were processed

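Per the labels' protocols, RNA was extracted from oocytes with a commercial kit and biotinylated cRNA was hybridised to 1 array per sample. The authors deposited a linear intensity for each probe set, but the sources used here give neither software nor scaling, nor why some cells are empty. The deposited scaling was kept, control probe sets were left out (64), and empty cells stayed empty. Gene symbols come from the platform annotation, and for lists of other genes were updated through RefSeq identifiers. Log2(intensity + 16) was fitted in R 4.3.3 with limma 3.58.1, using lmFit and a trended eBayes with two-sided p-values, adjusted by Benjamini-Hochberg over all 16288 tested probe sets, those listed on at least 3 arrays of each group. The number of arrays limits the precision, with a median SE of 0.17. On data simulated from this comparison on 16288 probe sets the fit recovered 70% of 2-fold changes and 98% of 4-fold changes. That recovery is not read as the power for the members. In the real data the Cdk4 differences of -1.05 to -1.10, close to the 2-fold size, had SE of 0.38 to 0.39. They were not called (limma adjusted p from 0.475 to 0.493). Members, lists and tests were chosen with earlier results of these data known. Named genes are the members, up to 4 cell type markers per list with the highest untreated mean, the 6 other G1 genes with the smallest p, and the 5 genes most correlated with Rb1 and with Ccnd2. Other markers and genes named were picked after their values were seen. Scaling, pseudocount, listing rule, array weights, a replicate block and left-out arrays were varied. Plots were drawn in Python 3.11.15 with matplotlib 3.10.9.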

Additional observations from a re-analysis of the deposited data

Results flagged for a closer look

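Ccne2 on untreated 2 lay far above the other untreated arrays, with 299 against 87.3, 87.1 and 109, and the gap on the log2 scale made up 0.830 of the range of the group. The milrinone arrays had 66.2 to 119.7. This was the only such case among 26 groups of 4 arrays, and chance alone gives about 1 in 20, which is 1.3 of the 26.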

How the results depend on the processing

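Over 179 recomputed log2 differences of the 10 tested member probe sets, 174 moved by less than the spread between replicates. Those of Cdk4 kept their sign under the 17 or 18 alternatives that gave each of them a value, in a range of -1.35 to -0.51. None was tested among the brighter probe sets, and 1422440_at was not where listing on all 4 arrays of each group was asked. The shift of 1422441_x_at from -1.10 to -0.64 without untreated 1 counted as less than the spread between replicates. Untreated 1 widened that spread, since the SD of the untreated intensities was 621 with it and 119 without it. Cdkn1b 1434045_at, 0.21 as reported, was -0.02 after quantile normalization and 0.43 with centring on ribosomal protein genes, and Ccnd1 1417420_at ran from -0.56 to -0.07 under the same settings. Cdkn2c, -0.12 as reported, was 0.04 without untreated 1, 0.09 with centring on ribosomal protein genes and 0.23 with array weights. Cdkn1b 1419497_at, -0.02 as reported, changed sign under 5 of 18 alternatives, with 0.36 under array weights, 0.19 with centring on ribosomal protein genes, and 0.35, 0.13 and 0.02 without untreated 4, milrinone 4 and milrinone 1. The count of changed probe sets over the whole array, 19, was 52 with centring on ribosomal protein genes, 12 with listing on all 4 arrays of each group, 6 among the brighter tested probe sets and 106 with array weights. It was 8 without milrinone 3 and 69 without untreated 1, the lowest and highest with an array left out. The number of changed member probe sets was 0, and 1, Ccnd2 1455956_x_at, with listing on at least 2 arrays of each group. With an array left out it ran from 0 to 1, and was 1 without milrinone 2 and without milrinone 4, where a group of 3 needed 2 listed arrays. None of the other G1 control list changed under any alternative run. The mean number of listed member probe sets per array differed by -7.0, milrinone minus untreated (-7.5 to -6.17 with an array left out, an alternative chosen after seeing the data), and by -1.0 in genes. With a replicate block 13 probe sets changed, 0 of them members. Nothing in the labels pairs same-numbered samples, and their deviations from the group means correlated at -0.27 to 0.03. Differently numbered samples ranged from -0.18 to 0.28, so these correlations cannot tell whether same-numbered samples shared a source.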

Other observations

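The genes whose probe sets followed Ccnd2 most closely over the 6 arrays that listed 1455956_x_at were Necap2 (Pearson r = 0.994), Stxbp3 (0.993), Gja1 (0.985), Itch (0.977) and Dsp (0.977), out of 13306 probe sets compared. The 6 arrays were milrinone 1 and 3 and the 4 untreated arrays, so the r mostly reflects the gap between the groups. Gja1, the connexin of granulosa cells, had 25.8 to 426 in milrinone against 3430.5 to 9322 in untreated samples. Dsp, which encodes desmoplakin, had 19.5 to 24.2 in milrinone against 144 to 192 in untreated samples. The groups overlapped for the other 3: Necap2 had 125 to 295 in milrinone against 290.2 to 427 in untreated samples, Stxbp3 had 149.8 to 511 in milrinone against 403 to 471 in untreated samples, and Itch, which encodes a ubiquitin ligase, had 292 to 453 in milrinone against 383 to 388 in untreated samples.

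On the whole array 47 probe sets, some of Ccnd2 among them, had at least 250 on each untreated array and at most 2 listed milrinone arrays, a rule made after the values were seen. Of their 41 genes, 8 belonged to the granulosa, cumulus and theca list of 25 genes. The rule keeps only probe sets that are high in untreated samples, and the list was chosen with earlier results known. Nothing is therefore read from this count. The 8 were Cyp11a1, Cyp17a1, Fst, Gja1, Hsd3b1, Inha, Inhba and Inhbb, each with 1 probe set. Some of these genes also had probe sets outside the rule. Another probe set of Cyp11a1 was listed on all 4 milrinone arrays, and its groups overlapped. It had 181 to 226 in milrinone against 127 to 212 on untreated 1, 2 and 4. Another of Gja1 was also listed on all 4 milrinone arrays but lay lower there, with 13.9 to 84.2 against 515 to 1636 in untreated samples. The rest of the 41 genes, chosen after their values were seen, included Sparc, a matrix protein, and Akr1c18, which inactivates progesterone. They also included Aldh1a1, an enzyme of retinoic acid synthesis, and Prkar1b, a subunit of the cAMP-dependent kinase. The probe sets of Sparc, Akr1c18, Aldh1a1 and Prkar1b in that group were all empty on the milrinone arrays.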
